A study of Mus musculus with 12 samples.

Results

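The genes examined here encode the subunits, assembly factors and regulators of the constitutive proteasome. They were taken as every listed gene whose symbol is Psm followed by a letter from a to g and a digit and whose name contains the word proteasome, without the inducible subunits Psmb8, Psmb9 and Psmb10. The rule found 43 of 14851 genes. It used names only, so no measured value chose a gene. Psmc1, Psmc5, Psme3 and Psme2b were missed because their listed names spell the word differently, and Psmc3ip, a cofactor of meiotic recombination, was taken in through its name although it is no subunit. The question was whether the RNA of the other main route of protein degradation differs when autophagy is lost.

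RNA-sequencing was performed on 562 cells, a spontaneously immortalized mouse line grown from cutaneous vascular tumors of tamoxifen-treated Tsc1 f/f;Scl-Cre mice. The Scl-driven Cre removes Tsc1 in endothelial cells, so all groups share the loss of Tsc1, although the control libraries carry the genotype label wildtype. The 4 groups of 3 libraries were control cells (given a guide against EGFP, per the methods), and cells with Fip200 KO, with Atg5 KO or with Atg7 KO, all made by lentiviral CRISPR and puromycin selection. The strain label is C57BL/6 and the tissue label is lymphatic endothelial cells. Fip200 KO cells were kept as 2 clones, and the labels do not say which library came from which clone. Atg5 KO and Atg7 KO cells were each made with 1 guide. FIP200 (gene Rb1cc1) is part of the kinase complex that starts autophagosome formation, while ATG5 and ATG7 belong to the conjugation machinery that attaches LC3 to the growing membrane.

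The proteasome is a barrel of stacked rings that degrades proteins tagged with ubiquitin. The outer rings of its 20S core are built from alpha subunits (Psma genes) and gate the entrance, and the inner rings are built from beta subunits (Psmb genes), of which Psmb5, Psmb6 and Psmb7 carry the chymotrypsin-like, caspase-like and trypsin-like activities. A 19S cap of ATPases (Psmc) and non-ATPases (Psmd) recognises, deubiquitinates and unfolds substrates. When proteasome activity falls, the transcription factor NRF1 (gene Nfe2l1) is processed by DDI2 and raises proteasome genes together through antioxidant response elements. Proteasome and autophagy share cargo, since ubiquitinated proteins can be bound by either route.

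Between 17266926 and 23629730 reads per library were assigned to listed genes, a 1.37-fold range. Atg7 RNA was 18.4, 25.0 and 19.8 RPKM (reads per kilobase, scaled to a common depth) in control cells and 5.40, 2.64 and 8.34 in Atg7 KO cells, whereas Rb1cc1 and Atg5 RNA overlapped the control values in their own KO. Atg5 KO cells had less Atg7 RNA than control too, at 9.99, 11.9 and 9.94 (-0.95 on the log2 scale, limma adjusted p = 0.00830), and it was at 38.3, 12.4 and 8.23 in Fip200 KO cells, where the last value lay below the highest of the Atg7 KO libraries. RNA levels of the targeted genes thus did not single out the libraries of any KO. The summed RPKM of 10 endothelial markers lay between 1134 and 3167 in all libraries, although Vwf stayed under 1. The sum of 4 lymphatic markers was 219 to 821, and that of epithelial markers 0.392 to 10.6. Control 2 stood apart, with the highest fibroblast and mural sum (70.9, against 20.9 in control 3 and 1.15 to 16.2 elsewhere, led by Dcn at 56.9) and the lowest endothelial sum. With Atg5 KO, 5 of 9 endothelial markers tested were called higher (Cdh5, Kdr, Tie1, Cldn5 and Egfl7) and none lower, where 22.9% of all genes tested were called higher and 18.7% lower. The part of these differences in the proteasome values was not tested. Without control 2, 12 proteasome genes were called higher with Atg5 KO (29.3%, against 20.9% of all genes). Of the 6 leukocyte markers listed, Ptprc, Csf1r, Adgre1 and Cd79a stayed under 1, while Cd68 and Lyz2 did not, and the summed level ran from 53.0 to 111 in control, 19.7 to 265 with Fip200 KO, 15.1 to 16.7 with Atg5 KO and 14.0 to 27.5 with Atg7 KO. Library names carry 3 prefixes that cut across the groups, FY for control 1 and all Fip200 KO libraries, JG for control 2 and 3 and Atg5 KO 1 and 2, and Yang for Atg5 KO 3 and all Atg7 KO libraries. No Atg7 KO library shares a prefix with a control, so Atg7 KO has no value within a prefix.

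In control cells the tested genes spanned 5.39 to 232 RPKM, a scale that corrects for gene length and depth. The 20S and 19S subunits lay highest, from 58.1 for Psma3 to 232 for Psmb7. Psmb4 (193), which like the other noncatalytic beta subunits shapes the inner ring, followed Psmb7. Assembly chaperones were lower, with Psmg4 at 11.4 and Psmd10 at 20.8, except for Psmd5 at 83.4. Psmf1, which encodes the inhibitor PI31, was at 7.98. The tissue-restricted subunits Psma8 of testis and Psmb11 of thymus were at or under 0.0971 and at 0.194 to 0.398 RPKM, did not reach 0.5 RPKM and were not tested. The other 41 genes were tested in every comparison.

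**Figure D1:**
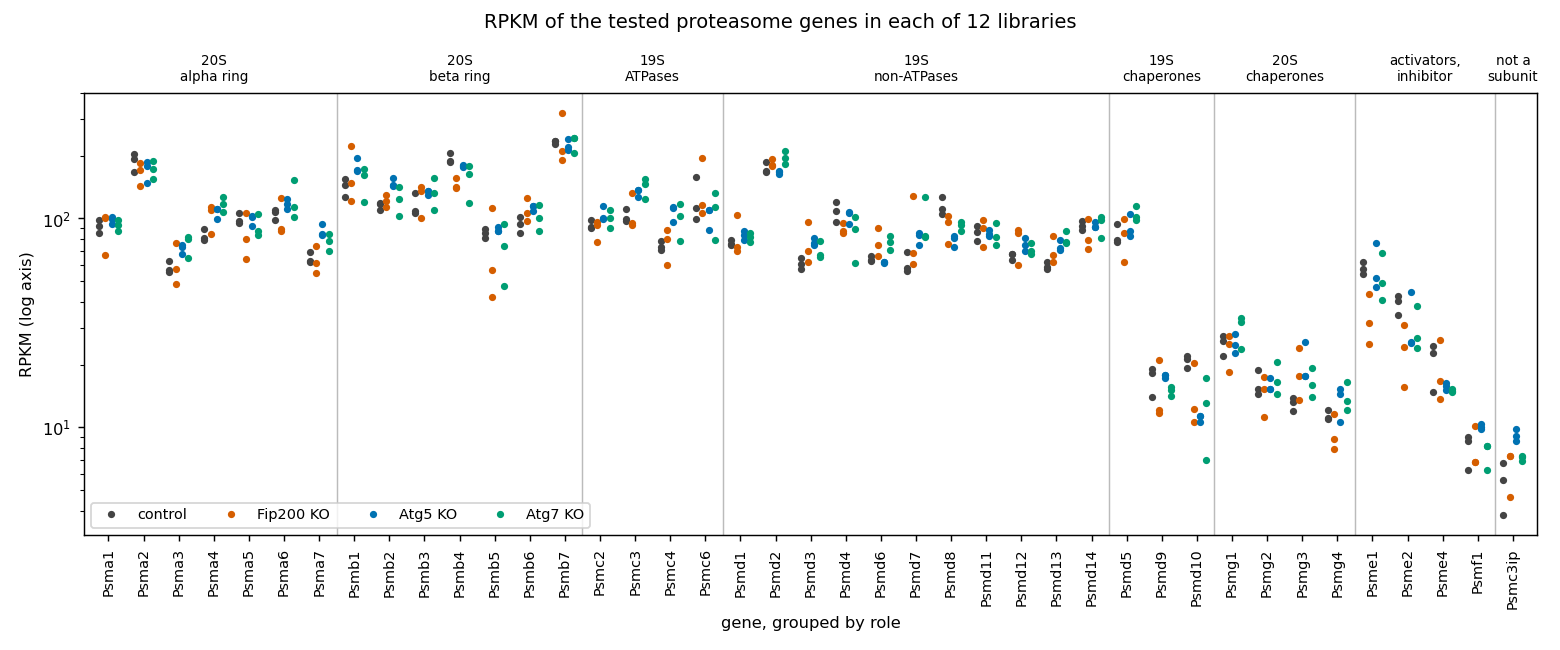
RPKM (log axis) of the 41 tested genes, 1 point per library, coloured by group and ordered by role. Subunits of the 20S and 19S particles lie mostly above 50 RPKM, and the 4 groups of points overlap for most genes.

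The spread between libraries was small for these genes. The median SD of their log2 values within a group was 0.097 in control cells, against 0.20 over the 7802 genes of the same range of levels. It was 0.31 against 0.38 with Fip200 KO, 0.087 against 0.14 with Atg5 KO and 0.18 against 0.25 with Atg7 KO. Among the Fip200 KO libraries, the second held the lowest value for 34 of 41 genes and the third the highest for 27. The study describes the RNA replicates of each KO as independent, but no label ties these libraries to separate cultures.

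Psmb5, the chymotrypsin-like site and the target of proteasome inhibitors, was at 80.8, 89.3 and 85.5 RPKM in control cells. It was at 56.9, 42.0 and 112 with Fip200 KO, 87.5, 87.0 and 90.5 with Atg5 KO and 74.0, 94.3 and 47.6 with Atg7 KO. The first and second Fip200 KO libraries and the third Atg7 KO library lay below all others, and the highest library of each of these groups lay above all controls. Psmb6, the caspase-like site, was at 85.3, 102 and 94.3 in control, 125, 97.2 and 106 with Fip200 KO, 109, 115 and 114 with Atg5 KO and 116, 87.4 and 101 with Atg7 KO. Psmb7, the trypsin-like site, was at 228, 235 and 234, 320.5, 190.0 and 210.4, 219, 212 and 240.3 and 242, 241 and 205 in the same order. Only Psmb6 in Atg5 KO cells stood clear of control among the 9 catalytic values, and its change was small (log2 fold change 0.27 ± 0.10, SE, limma adjusted p = 0.0954). Each setting that left out a library other than control 2 ended that call.

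**Figure D2:**
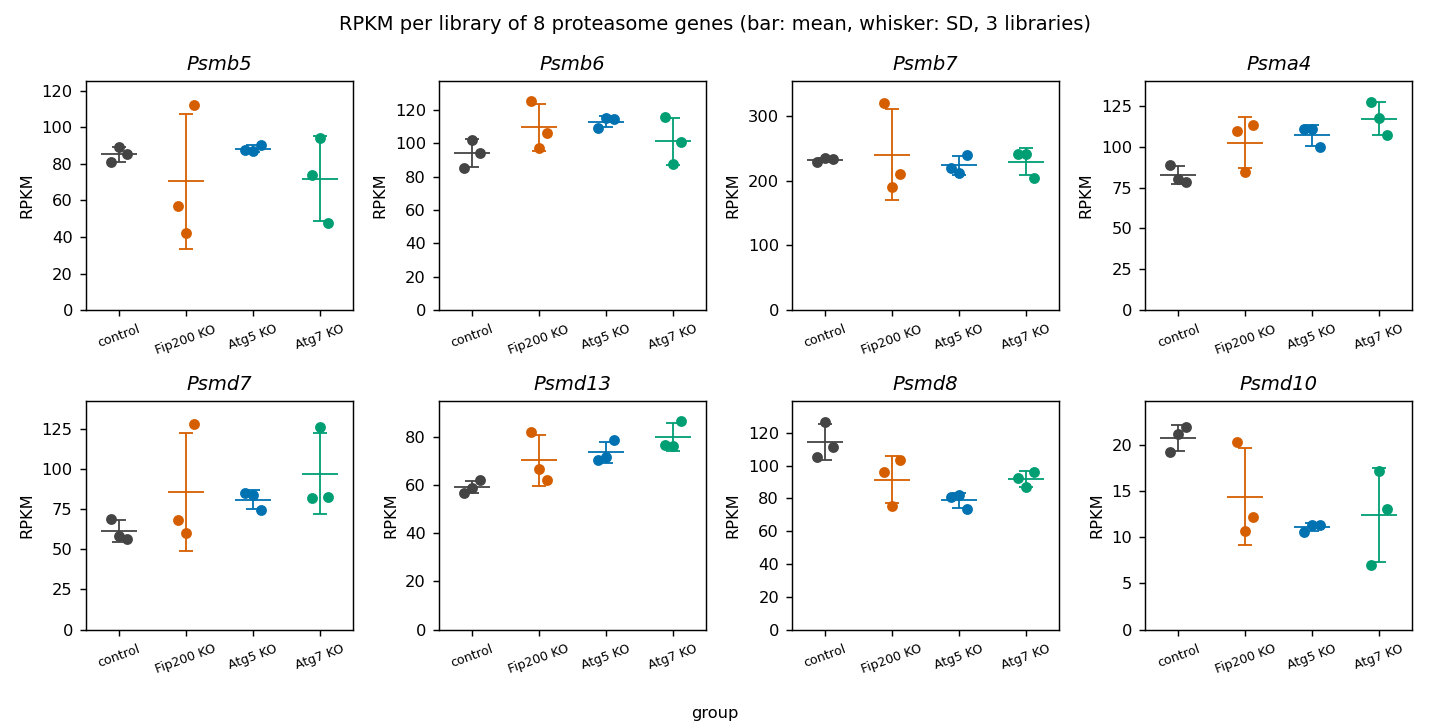
RPKM per library (points), with mean and SD of 3 libraries, for the 3 catalytic subunits and 5 other genes. Psmd13 and Psma4 lie higher and Psmd8 and Psmd10 lower in most KO libraries, while Psmb7 runs from 190.0 to 320.5 in Fip200 KO libraries, on both sides of its control mean of 232.

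In Fip200 KO cells no proteasome gene passed the test, and the log2 fold changes of the ring and cap genes ran from -0.40 to 0.41. All fold changes below compare the groups on log2(RPKM + 0.5) by limma over all genes tested, with 3 libraries against 3, and calls needed an adjusted p no higher than 0.1, the level used in the study. None of 41 was called, where 2.05% of all genes tested were (0.356% higher, 1.69% lower, and 1.98% past 2-fold in either direction). The KO and control libraries did not overlap for 7 genes, or 17.1% against 24.1% of all genes. At an unadjusted p under 0.05 there were 2, or 4.88% against 16.1% of all genes. Voom on the recovered reads called none, against 1.69% of all genes. The median log2 fold change was -0.02, against 0.02 for all genes, with 20 values above 0 and 21 below. The 95% intervals excluded a 2-fold change in 35 of 41 genes, against 46.2% of all genes. They excluded a 1.5-fold change in 13, against 6.14% of all genes.

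The lowest values belonged to the interferon-inducible activator PA28, which docks onto the 20S core in place of the 19S cap. Psme1, its alpha subunit, was at 62.0, 54.2 and 57.4 RPKM in control and 31.6, 25.1 and 43.4 in Fip200 KO cells, and its partner Psme2 was at 42.4, 40.1 and 34.4 and 24.3, 15.6 and 30.9. All 3 KO libraries lay below control for both. The log2 fold changes were -0.82 ± 0.24 (SE) for Psme1, with limma's adjusted p = 0.173, and -0.76 ± 0.27 for Psme2, with adjusted p = 0.244. Without the third Fip200 KO library, Psme1 (-1.02, adjusted p = 0.0507), Psme2 (-0.98, 0.0930) and Psmb5 (-0.79, 0.0921) were called lower, 7.32% of the 41 genes against 4.52% of all genes. Psme2 has a near-identical retrocopy, Psme2b, and how reads fitting both were counted is not given in the sources used here. In Atg5 KO cells the pair was at 51.8, 47.1 and 76.5 and 25.2, 25.6 and 44.4, in Atg7 KO cells at 68.4, 48.9 and 40.6 and 38.3, 26.7 and 24.0, and 1 library of each KO reached or passed the control levels.

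The highest values in Fip200 KO cells were those of Psmg3, Psmd7 and Psmd3. Psmg3, a chaperone of 20S ring assembly, was at 11.9, 13.3 and 13.8 in control and 17.7, 13.5 and 24.1 in Fip200 KO cells (0.45 ± 0.25, limma adjusted p = 0.412). The Psmd7 value rested on the third library alone, at 128 against 68.5 and 60.3, and overlapped control. Psmd3, a non-ATPase subunit of the lid, was at 60.3, 57.3 and 64.5 in control and 70.2, 61.8 and 96.2 in Fip200 KO cells (0.30 ± 0.21, adjusted p = 0.510), and its second KO library fell among the controls. Psma4, next in order, was at 109.8, 84.6 and 113 in Fip200 KO cells, and there too the second library fell among the controls.

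In Atg5 KO cells 13 proteasome genes rose and 2 fell, all by less than 2-fold. The genes that rose came from both rings and both parts of the cap: Psma3, Psma4, Psma7, Psmb1, Psmb2 and Psmb6 of the core, Psmc3 and Psmc4 of the ATPases, Psmd3, Psmd7 and Psmd13 of the non-ATPases, the chaperone Psmg3, and Psmc3ip, which is no subunit. Psmc5, an ATPase that the rule missed, also rose, from 73.0, 83.3 and 79.8 to 105, 99.5 and 104 RPKM (0.38 ± 0.10, SE, limma adjusted p = 0.0280), and was named after its values were seen. Psmd8, a non-ATPase of the lid, and Psmd10 (gankyrin), which escorts the ATPases during cap assembly, fell. Higher calls made up 31.7% of 41 genes, against 22.9% of all genes tested, and lower calls 4.88% against 18.7%. Calls in either direction were at 36.6% against 41.5%, and the libraries of the 2 groups did not overlap for 21 genes, or 51.2% against 50.4%. None of the 41 passed 2-fold, as 11.2% of all genes did. The median log2 fold change was 0.12, against 0.06 for all genes. The intervals excluded a 2-fold change in 38 genes, against 64.3% of all genes, and a 1.5-fold change in 26, against 26.1% of all genes.

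Psmd10 showed the largest called change among the 41 genes. It was at 19.2, 21.2 and 22.0 RPKM in control and 10.6, 11.4 and 11.3 in Atg5 KO cells, with no overlap, a log2 fold change of -0.88 ± 0.11 (SE) and a limma adjusted p of 0.00487. Atg7 KO cells were at 6.98, 17.2 and 13.0, also all below control (-0.81 ± 0.31, adjusted p = 0.115). Without the second Atg7 KO library this became -1.08 with adjusted p = 0.0362. In Fip200 KO cells it was at 20.4, 10.6 and 12.3, where the first library fell among the controls.

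Psmd8, whose joining completes the lid, was at 105, 127 and 112 in control, 96.0, 75.2 and 103 with Fip200 KO, 81.0, 82.1 and 73.4 with Atg5 KO and 92.7, 86.7 and 95.9 with Atg7 KO. Every KO library lay below every control library, by -0.53 ± 0.11 on the log2 scale in Atg5 KO cells (limma adjusted p = 0.0163). Among the genes that rose, the ATPase Psmc4 was at 71.0, 73.0 and 78.3 in control and 112, 114 and 96.4 in Atg5 KO cells (0.53 ± 0.11, adjusted p = 0.0151). Psmg3 was at 17.7, 17.6 and 25.6 (0.60 ± 0.17, adjusted p = 0.0387), with the third library highest. Psmc3ip went from 3.80, 6.75 and 5.62 to 8.58, 9.84 and 9.09 (0.75 ± 0.21, adjusted p = 0.0366). The next lowest after Psmd10 and Psmd8 was Psme4, which encodes the activator PA200, at 14.7, 24.6 and 22.6 in control and 16.4, 15.8 and 15.1 in Atg5 KO cells, where the first control library fell below the KO values. Without that control library Psme4 was called lower (-0.57, adjusted p = 0.0196), and without Atg5 KO 3 so was Psme2 (-0.60, 0.0304).

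The number of higher calls depended on which libraries were used. It was 8 without control 3 (19.5% of the 41 genes, against 16.6% of all genes tested) and 4 without either Atg5 KO 1 (9.76% against 12.2%) or Atg5 KO 2 (9.76% against 13.9%), so that the share lay below that of all genes without either of these. They are a pair whose counts were closer to each other (chi-square per degree of freedom 8.66) than any other pair of one group (51.4 or more). The calls of Psmd10, Psmd8, Psmc4 and Psmg3 held in each of the 6 fits that left out 1 library. Within the JG libraries, where 2 Atg5 KO libraries met 2 controls, the differences, which rest on 4 of the 6 libraries of the fit and were not tested, were -0.95 for Psmd10, -0.54 for Psmd8 and 0.57 for Psmc4 on the log2 scale. With the prefix as a term in a fit of all 12 libraries, none of the 41 genes was called in any KO, and the share of all genes called was 0.384% with Fip200 KO, 6.43% with Atg5 KO and 0.311% with Atg7 KO.

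**Figure D3:**
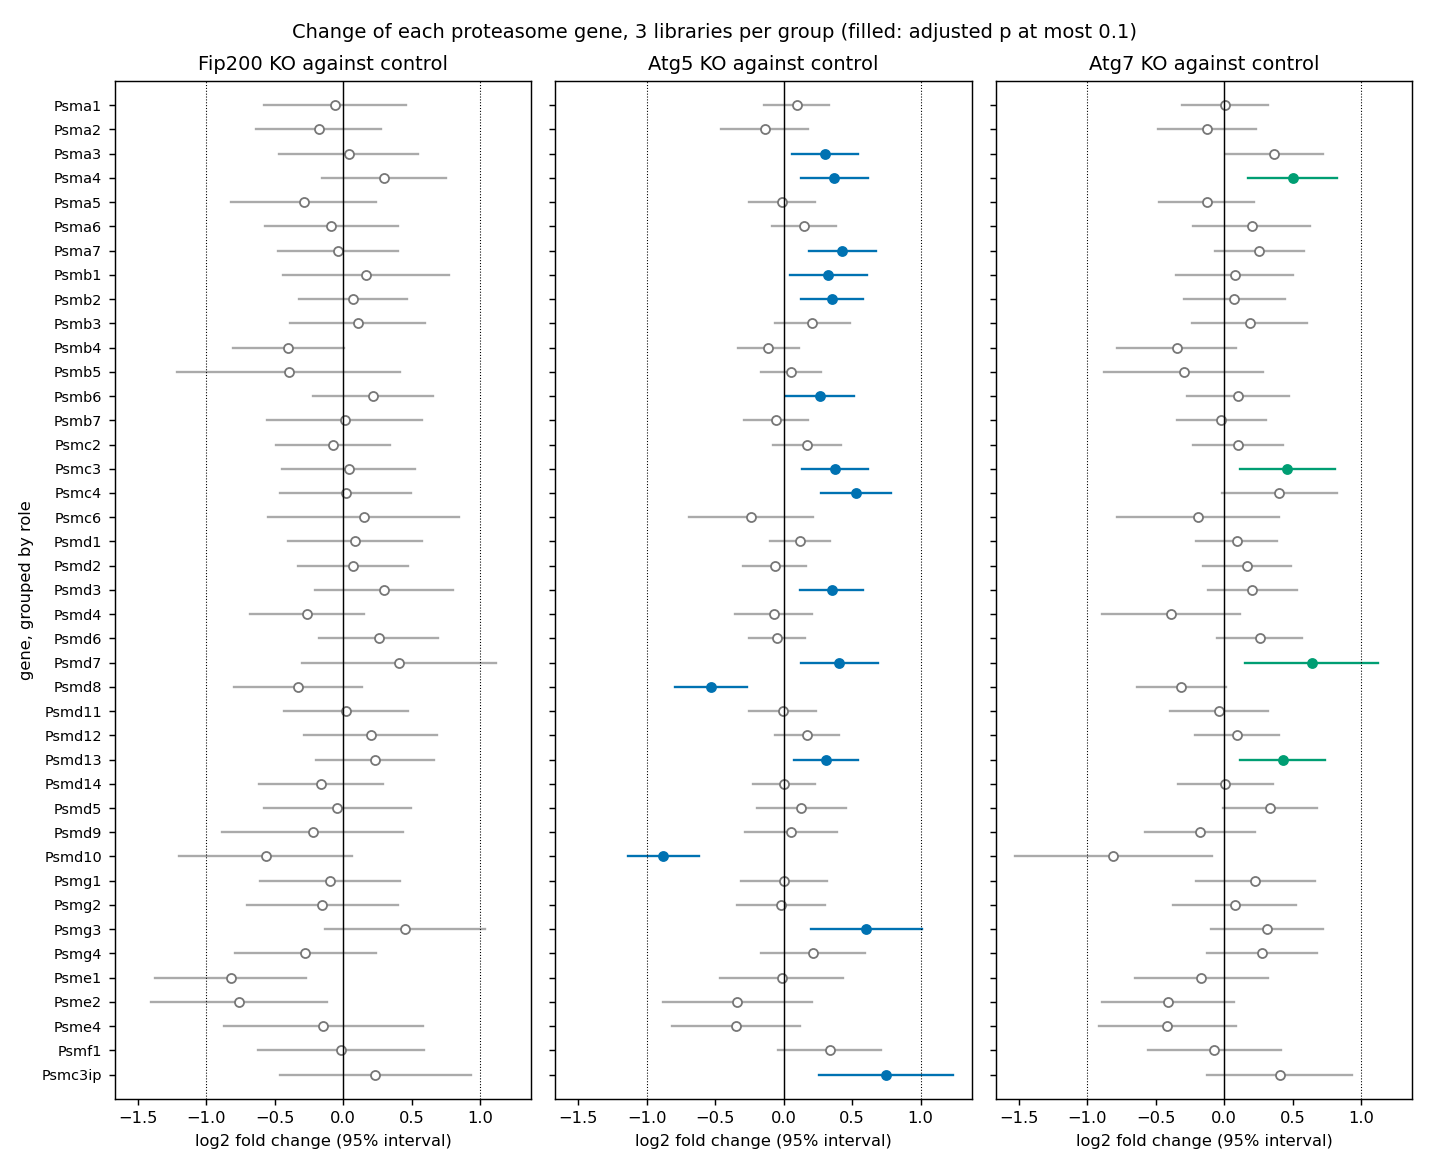
Log2 fold change (points) and 95% interval (lines) of each gene against control in the 3 KO groups, with filled points for an adjusted p of at most 0.1 and dotted lines at 2-fold. No point reaches a dotted line. Filled points number 0 with Fip200 KO, 15 with Atg5 KO and 4 with Atg7 KO.

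In Atg7 KO cells 4 genes rose and none fell. Psma4, an alpha-ring subunit, was at 89.0, 80.6 and 78.8 RPKM in control and 127, 118 and 107 in Atg7 KO cells (0.50 ± 0.14, limma adjusted p = 0.0554). Psmd7, a scaffold of the lid that pairs with the deubiquitinase Psmd14, was at 69.0, 58.1 and 56.2 and 81.9, 126 and 82.8 (0.64 ± 0.21, adjusted p = 0.0791), with the second library far above the other two. The ATPase Psmc3 was at 99.0, 97.6 and 112 and 146, 155 and 124 (0.46 ± 0.15, adjusted p = 0.0782). Psmd13, another lid subunit, was named after its values were seen and was at 57.0, 58.8 and 62.2 and 77.0, 76.3 and 86.8 (0.43 ± 0.13, adjusted p = 0.0711).

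These calls covered 9.76% of the 41 genes, against 25.1% of all genes tested. The 3 KO comparisons share their control libraries, so their values are not independent. Higher calls were 9.76% against 11.3%, and lower calls 0 against 13.7%. None passed 2-fold, as 10.1% of all genes did. The libraries of the 2 groups did not overlap for 14 genes, or 34.1% against 39.6%. At an unadjusted p under 0.05 there were 6 genes in either direction, or 14.6% against 33.7%. Voom called 4 higher (9.76%, against 11.7% of all genes) and none lower (against 13.4%). The median was 0.09, against -0.01 for all genes. The intervals excluded a 2-fold change in 39 of 41, against 55.1% of all genes. Higher calls numbered 2 without Atg7 KO 3 (4.88%, against 5.70% of all genes), 1 without control 1 (2.44% against 8.37%) and 4 without Atg7 KO 2 (9.76% against 16.5%). They numbered 0 without control 2, control 3 or Atg7 KO 1, where 4.39%, 2.42% and 3.11% of all genes were called higher. Without control 1, Psme4 was called lower (-0.64, adjusted p = 0.0691). The lowest values after Psmd10 were those of Psme4, at 14.9, 15.3 and 14.7, and Psme2.

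**Figure D4:**
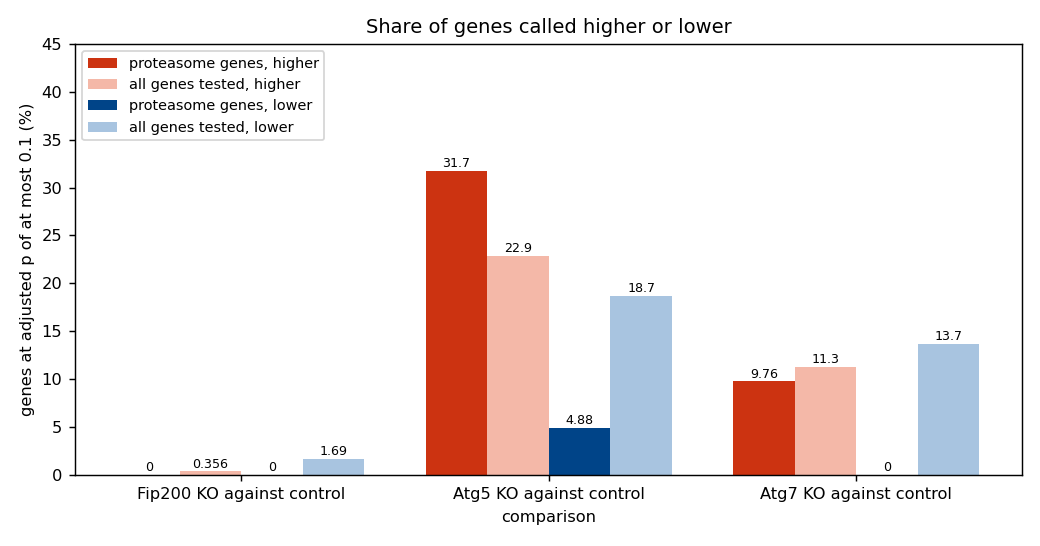
Share of genes called higher or lower at an adjusted p of at most 0.1, for the 41 proteasome genes and for all genes tested, in each KO. Lower calls stood at 0%, 4.88% and 0% of the proteasome genes, beside 1.69%, 18.7% and 13.7% of all genes.

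Summed over a particle, RNA levels stayed close to control. The 7 alpha-ring genes summed to 691 ± 26.8 RPKM (mean ± SD, n = 3) in control, 667 ± 111 with Fip200 KO, 752 ± 30.0 with Atg5 KO and 749 ± 47.6 with Atg7 KO. The 7 tested beta-ring genes summed to 978 ± 43.1, 977 ± 141, 1062 ± 44.1 and 963 ± 106. In no group did the ring sums differ from control by more than 1.09 times. The 4 ATPase genes taken by the rule were at 1.14 times control with Atg5 KO and again with Atg7 KO, and the 11 non-ATPases at 1.01 and 1.06 times. Activators and inhibitor together were at 0.667 ± 0.199 (SD) times control with Fip200 KO, 0.925 ± 0.210 with Atg5 KO and 0.835 ± 0.181 with Atg7 KO. In bulk RNA, fewer cells of a type and less RNA per cell cannot be told apart.

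Against control, the mean of the 3 KO groups was tested in a fit of all 12 libraries. Psma4 (0.39, adjusted p = 0.0491) and Psmd13 (0.32, 0.0715) were higher, and Psmd8 (-0.39, 0.0494) and Psmd10 (-0.75, 0.0562) were lower. These 4 made up 9.76% of the 41 genes, where 28.2% of all genes were called, and the median was 0.07 against 0.03. None of the 41 was called without control 2 or control 3, where the share of all genes called was 9.48% and 9.54%. Left out in turn, the libraries gave 0 to 6 higher and 0 to 4 lower calls, with 6 higher (14.6%, against 14.4% of all genes) without Fip200 KO 2 and 4 lower (9.76% against 17.0%) without Fip200 KO 3.

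The KO groups were not shown to differ from each other. Neither limma nor voom called a single gene, proteasome or other, in the 3 contrasts between KO groups. At an unadjusted p under 0.05, limma found 6 proteasome genes (14.6%, against 7.58% of all genes) between Atg5 KO and Fip200 KO, 3 (7.32% against 7.49%) between Atg7 KO and Fip200 KO, and 1 (2.44% against 4.59%) between Atg7 KO and Atg5 KO cells. The lowest adjusted p was 0.528. That 15 genes were called in Atg5 KO and none in Fip200 KO cells is thus no evidence of a difference between them, and the median SE of the log2 fold change was 0.10 in the first and 0.21 in the second comparison. Without the third Fip200 KO library, 3 of the 41 genes (7.32%, against 3.17% of all genes) were called higher in Atg5 KO than in Fip200 KO cells.

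Medians over whole chromosomes also differed from control. In all 3 KO groups the median over the genes of chromosome 9 lay above 0 (0.24, 0.26 and 0.29 on the log2 scale in Fip200, Atg5 and Atg7 KO cells) and those of chromosomes 8 (-0.34, -0.34 and -0.36) and X (-0.33, -0.37 and -0.26) lay below 0. Psma4 is on chromosome 9, and its changes of 0.30, 0.37 and 0.50 went the same way as that median. Once each chromosome was centred, Psma4 was no longer called in Atg5 KO (0.17, adjusted p = 0.216) or Atg7 KO cells (0.25, 0.199). Psmd10 is on chromosome X and lay further below 0 than its median. Psmd7 is on chromosome 8, whose median lay below 0, but rose against control by 0.41 with Atg5 KO and 0.64 with Atg7 KO. After centring these changes were 0.71 and 0.93. Of the 15 genes called with Atg5 KO, 11 were also called after centring, and Psma4, Psmb1 (from 0.33 to 0.059, adjusted p = 0.678), Psmb2 (from 0.35 to 0.014, adjusted p = 0.914) and Psmd13 (from 0.31 to 0.18, adjusted p = 0.187) were not. The medians of chromosome 17, which holds Psmb1, and of chromosome 4, which holds Psmb2, were 0.36 and 0.40 with Atg5 KO. Psmg4 (0.50, adjusted p = 0.0280) was called after centring alone. With Atg7 KO, 3 of 4 genes were called both ways, and 4 more after centring alone (Psma3, Psma7 and Psmd6 higher, Psmd8 lower). The share of all genes called after centring was 38.2% with Atg5 KO and 28.6% with Atg7 KO.

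**Figure D5:**
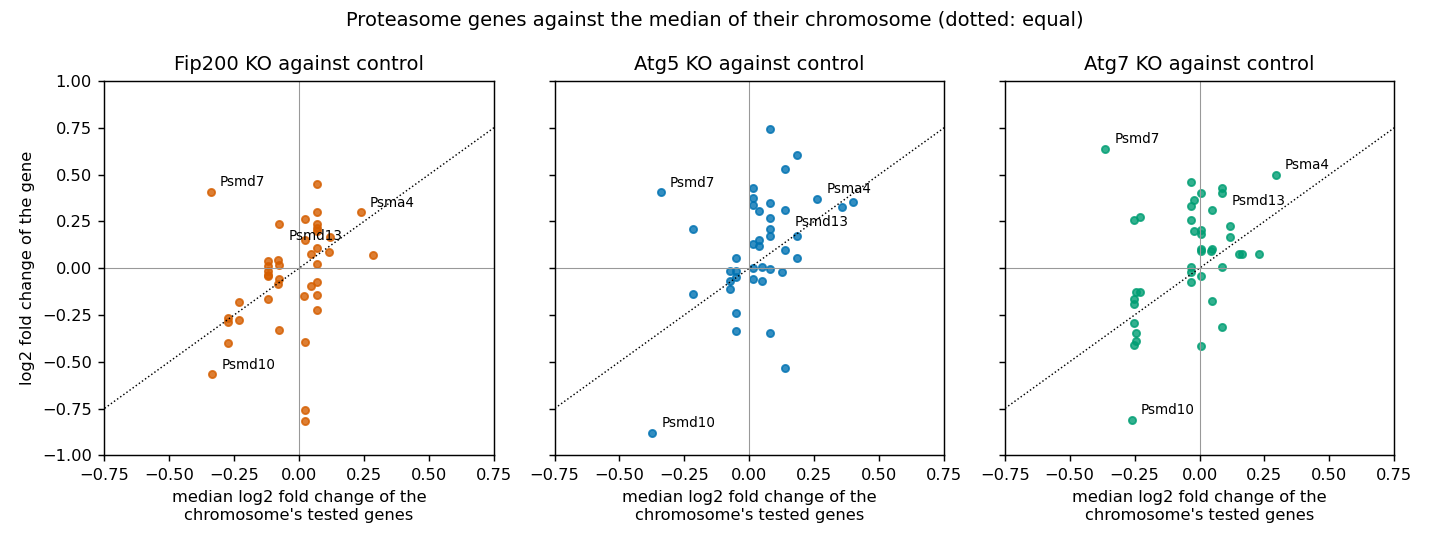
Log2 fold change of each proteasome gene (y axis) against the median log2 fold change of its chromosome's genes (x axis) in each KO, with a dotted line of equality. Psma4 lies at the right with both values above 0, Psmd10 below the line and Psmd7 far above it in all 3 panels.

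The inducible subunits, which replace the catalytic subunits in the immunoproteasome, showed larger changes in some of the KO groups. Psmb8 was at 15.0, 23.3 and 10.6 RPKM in control, 0.866, 0.366 and 2.68 with Fip200 KO, 7.58, 7.34 and 3.82 with Atg5 KO and 30.2, 16.0 and 1.72 with Atg7 KO. It was lower by -3.36 ± 0.51 (log2, SE) in Fip200 KO (limma adjusted p = 0.0440) and -1.30 ± 0.35 in Atg5 KO cells (0.0324), whereas Atg7 KO libraries ran from below to above all controls. Psmb9 was at 5.95, 10.4 and 3.77 in control, 0.313, 0.185 and 0.622 with Fip200 KO, 0.835, 2.11 and 0.631 with Atg5 KO and 4.96, 4.49 and 0.365 with Atg7 KO. Its changes were -2.97 ± 0.40 (0.0363) in Fip200 KO and -2.09 ± 0.43 (0.0156) in Atg5 KO cells. Psmb10 was called higher in Atg7 KO cells, at 17.0, 20.8 and 11.7 against 11.1, 6.46 and 7.13 (0.96 ± 0.28, 0.0624). In Fip200 KO cells the Psmb8 call was lost without any 1 library but Fip200 KO 3 (adjusted p up to 0.267). The Psmb9 call was lost without control 2, control 3 or Fip200 KO 2, although its fold change stayed at -2.62 or lower. Without control 2 or control 3, no gene tested was called in Fip200 KO cells. The Psmb10 call was lost without control 2, control 3 or Atg7 KO 1. Over all alternatives, each of these 5 calls was lost at least once. The adjusted p of limma or voom reached 0.594 for Psmb8 and 0.530 for Psmb9 in Fip200 KO. It reached 0.613 and 0.240 in Atg5 KO, and 0.815 for Psmb10 in Atg7 KO. Leukocytes express all 3 genes, and the summed leukocyte markers given above, carried mostly by Cd68 (263 of 265 in the first Fip200 KO library), were lower in Atg5 KO and Atg7 KO than in control libraries. Ptprc and Csf1r were under 1 RPKM throughout, and the part of leukocytes in these values was not tested.

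Of 17 proteasome-bound and assembly genes with other symbols, none was called in Fip200 KO, 9 in Atg5 KO (7 higher, 2 lower, together 52.9% against 41.5% of all genes) and 3 in Atg7 KO cells (1 higher, 2 lower, together 17.6% against 25.1%). Ube3c, a ubiquitin ligase that extends chains on proteasome-bound substrates, was the 1 gene past 2-fold, at 24.7, 17.9 and 16.9 RPKM in control and 40.2, 39.0 and 45.4 in Atg5 KO cells (1.07 ± 0.16, limma adjusted p = 0.00745). Fip200 KO libraries were at 35.2, 27.3 and 40.0 and Atg7 KO libraries at 37.8, 43.9 and 31.9, so that every KO library lay above every control. Pomp, the chaperone that matures the beta ring, was at 191, 149.8 and 201 in control and 172, 147 and 146, 189, 205 and 186 and 165, 114 and 155 in Fip200, Atg5 and Atg7 KO cells, with overlap in each.

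Of 13 genes that control proteasome transcription, none was called with Fip200 KO, while 4 rose and 4 fell with Atg5 KO (30.8% each, against 22.9% and 18.7% of all genes) and 4 rose and 2 fell with Atg7 KO (30.8% and 15.4%, against 11.3% and 13.7%). Nfe2l1, the factor that raises proteasome genes, was at 89.3, 150.3 and 78.4 RPKM in control, 142, 75.3 and 49.8 with Fip200 KO, 58.1, 57.7 and 59.7 with Atg5 KO and 54.1, 46.8 and 54.2 with Atg7 KO. It fell by 0.79 ± 0.23 (log2, SE, limma adjusted p = 0.0441) with Atg5 KO and by 0.97 ± 0.25 (0.0459) in Atg7 KO cells, but not detectably in Fip200 KO cells, whose first library was among the highest. The Atg5 call was lost without Atg5 KO 1 or 2 and the Atg7 call without Atg7 KO 1. The other lower genes in Atg5 KO cells were Nfe2l2 (NRF2), Sel1l and Mafg, and the higher ones Keap1, which holds NRF2 in check, Ddi2, Vcp and Maff. In Atg7 KO cells Nfe2l2 was lower and Keap1, Vcp, Nploc4 and Maff were higher. Among the ubiquitin and E1 genes reported, Ubb, Rps27a and Uba6 rose in Atg5 KO cells and Rps27a rose in Atg7 KO cells, while none was called in Fip200 KO cells. Rps27a encodes a ubiquitin fused to a ribosomal protein, and Uba6 an enzyme that activates ubiquitin.

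Promoters were read for motifs of factors known to act on proteasome genes, since these genes are known to be raised together. RefSeq promoters of GRCm38.p6, from 250 bases before to 50 after the start, were found for 35 of the 43 genes (38 windows). The antioxidant response element was searched as TGACNNNGC on both strands and lay in 6 windows, or 15.8%, against 12.4% of all 32851 windows of the same length. A core ETS motif, CCGGAAG, lay in 14 windows, or 36.8% against 8.86%. The GC box GGGCGG lay in 57.9% against 35.7%, CCAAT in 31.6% against 37.4%, and the ZNF143 motif in 5.26% against 0.950%. The 5 motifs were chosen with the values known, and their matches could overlap.

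The 120 bases before the start, on the sense strand, are shown for both catalytic subunits that hold the response element and for 2 cap subunits, Psmd2 and Psmd6, that hold the ETS motif. Capitals mark the response element in Psmb5 (chr14:54617996-54618115, minus strand) and Psmb6 (chr11:70525237-70525356, plus strand) and the ETS motif in Psmd2 (chr16:20651532-20651651, plus strand) and Psmd6 (chr14:14120946-14121065, minus strand).
Psmb5: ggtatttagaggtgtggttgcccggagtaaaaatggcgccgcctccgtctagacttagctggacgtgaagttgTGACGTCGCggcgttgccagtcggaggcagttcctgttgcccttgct
Psmb6: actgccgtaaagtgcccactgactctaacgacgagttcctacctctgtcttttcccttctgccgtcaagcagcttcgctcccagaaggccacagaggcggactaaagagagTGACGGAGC
Psmd2: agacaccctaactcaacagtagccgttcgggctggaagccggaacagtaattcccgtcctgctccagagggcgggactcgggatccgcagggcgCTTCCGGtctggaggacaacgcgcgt
Psmd6: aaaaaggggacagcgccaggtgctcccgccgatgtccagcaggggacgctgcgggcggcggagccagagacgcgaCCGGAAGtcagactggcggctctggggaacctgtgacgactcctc
The motifs begin 47, 9, 26 and 45 bases before the start. This start is the one the promoter windows are built on. The RefSeq gene entries of Psmb5 and Psmd6 begin there, but that of Psmb6 begins 33 bases and that of Psmd2 530.0 bases upstream, so the Psmb6 element and the whole Psmd2 stretch lie inside those entries. The tested genes with the response element in their window had median log2 fold changes of 0.003, 0.05 and -0.18 in Fip200, Atg5 and Atg7 KO cells (6 genes), against -0.05, 0.11 and 0.13 for the 28 without it. Psmb5 and Psmb6, which both hold it, had fold changes of opposite sign in Fip200 KO (-0.40 and 0.22) and Atg7 KO cells (-0.30 and 0.10). For the 13 genes with the ETS motif the medians were 0.07, 0.01 and 0.17, against -0.16, 0.09 and 0.01 for the 21 without it. No match shows that a factor binds there.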

How the data were processed

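Total RNA of cultured 562 cells was made into NEBNext Ultra II Directional libraries, and the authors aligned the reads with TopHat2, counted them with Bioconductor packages and compared groups with edgeR. The genome build, annotation and versions are not given in the sources used here. The authors deposited 1 table per KO against the same 3 controls, with RPKM per library (reads per kilobase, scaled to depth) and, per gene, the mean signal of the 6 libraries as reads divided by size factors. The deposited columns of group comparisons (fold change, significance) were left unused. Whole reads were recovered from both (100% of nonzero values whole within 0.01 read), which gave the depths.

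Genes with at least 0.5 RPKM in 3 libraries were tested on log2(RPKM + 0.5) by limma 3.58.1 with an expression trend (R 4.3.3) and Benjamini-Hochberg adjustment over all genes tested. Calls needed an adjusted p no higher than 0.1, and were made again with a log2 fold change of 1 or more in size. Each KO was fitted with control alone, and the mean of the KO groups and contrasts between them in all 12 libraries. Gene lists covered 20S and 19S roles, activators, chaperones, inducible subunits, proteasome-bound genes, transcription control, ubiquitin genes and cell type markers. A gene of the ubiquitin list is not reported here. Every proteasome gene could be named. Values per library were given for Psmb5, Psmb6 and Psmb7, for the 3 highest and 3 lowest fold changes of each KO and for genes called in all 3, and outside the 43 for Psmb8, Psmb9, Psmb10, Nfe2l1, Pomp and list genes called past 2-fold. The genes and lists were chosen with earlier results of these data known. Alternatives covered the pseudocount, the filter, scaling, trend, fit, block, prefix, voom on recovered reads and each library left out. The chromosome-centred fit and the set of subunits by function were added after the data were seen. The fit was run on simulated reads with known 2-fold changes in Atg5 KO and the same relative spread for every gene. Changes under 2-fold and the real spread between libraries were not covered. P-values measure the spread between these libraries, which may be technical.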

Additional observations from a re-analysis of the deposited data

Results flagged for a closer look

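A cap scaffold, a lid subunit and a chaperone had all libraries of 1 KO group above the control mean and all libraries of another below it. For Psmd2, a scaffold of the cap, the log2 fold change against control was 0.074 with Fip200 KO, 0.17 with Atg7 KO and -0.066 with Atg5 KO. For Psmd6, a lid subunit, it was 0.26 with Fip200 KO, 0.26 with Atg7 KO and -0.049 with Atg5 KO. For Psmd9, a chaperone of the ATPases, it was 0.052 with Atg5 KO and -0.17 with Atg7 KO. None of these values was called. In limma's contrasts between the KO groups, Psmd2 differed by -0.14 between Atg5 KO and Fip200 KO (adjusted p = 0.779) and by 0.23 between Atg7 KO and Atg5 KO cells (adjusted p = 1.00). Psmd6 differed by -0.31 (adjusted p = 0.654) in the first of these contrasts and by 0.31 (adjusted p = 1.00) in the second, and Psmd9 by -0.23 between Atg7 KO and Atg5 KO cells (adjusted p = 1.00). The opposite directions themselves were otherwise not tested. Groups of 3 libraries were too small for the test for single outlying libraries.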

How the results depend on the processing

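Most results kept their direction and side of the threshold. Of the single-gene values under all alternatives, 1048 did so, 102 lost a call, 12 gained one and 38 changed sign, all of these from values that were not called. The numbers called changed more. With all 12 libraries in one fit, higher calls in Atg5 KO cells fell from 13 to 3. These were 7.32% of the 41 genes, against 9.83% of all genes, and so no longer above the latter. In the same fit, 1 lower call (Psme1) appeared in Fip200 KO cells (2.44%, against 5.97% of all genes). When the prefix of the library names was a term there were 0 higher and 0 lower calls in Atg5 KO, 0 higher in Atg7 KO, and 0 higher and 0 lower in the mean of the KO groups, and the median of the 41 genes was 0.0025 in Atg7 KO against control and -0.037 in Atg7 KO against Fip200 KO. Without the trend, Atg7 KO had 2 higher calls (4.88%, against 10.9% of all genes). With chromosomes centred, Atg7 KO had 1 lower call (2.44% against 14.5%), the mean of the KO groups 8 higher (19.5% against 13.8%) and 1 lower (2.44% against 14.2%), and the median of Atg5 KO against Fip200 KO was 0.050. Voom gave 1 higher call in the mean of the KO groups (2.44%, against 11.9% of all genes). The median of Atg7 KO against Atg5 KO was 0.035 with median-of-ratios scaling and 0.035 with voom. The cause of these changes was not tested.

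Replicate numbers did not pair the samples, since deviations of same-numbered libraries correlated between -0.50 and 0.25, and the library of the same number correlated best in 5 of 36 comparisons of a library with another group. With the replicate block, Atg7 KO had 0 higher calls (against 6.69% of all genes), Atg5 KO 9 higher (22.0% against 18.2%) and 2 lower (4.88% against 15.4%), and Fip200 KO 0 (against 0.788%).

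Leaving out 1 library at a time gave 4 to 12 higher and 2 to 3 lower calls in Atg5 KO. It gave 0 to 4 higher, 0 to 1 lower and 0 to 1 past 2-fold in Atg7 KO, and 0 to 3 lower and 0 to 1 past 2-fold in Fip200 KO. Over the same fits, the share of all genes called higher ran from 12.2% to 24.0% and lower from 11.7% to 18.5% in Atg5 KO, from 2.42% to 16.5% and from 3.71% to 16.8% in Atg7 KO, and lower from 0 to 4.52% in Fip200 KO. Past 2-fold was Psmd10 without Atg7 KO 2, where 947 of 11640 genes were called lower past 2-fold. In Fip200 KO it was Psme1 without Fip200 KO 3, beside 429 of 11659 genes. The mean of the KO groups had 0 to 6 higher calls (3.84% to 18.2% of all genes) and 0 to 4 lower calls (5.47% to 18.4%). Atg5 KO against Fip200 KO had 0 to 3 higher and 0 to 1 past 2-fold, and Atg7 KO against Fip200 KO 0 to 2 higher. These maxima came without Fip200 KO 3, at 7.32% against 3.17% of all genes and 4.88% against 3.44%. In the first, 165 of 12179 genes were called higher past 2-fold. Medians ran from 0.043 to 0.23 for Atg5 KO against Fip200 KO, from -0.13 to -0.023 for Atg7 KO against Atg5 KO and from -0.043 to 0.15 for Atg7 KO against Fip200 KO.

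With median-of-ratios scaling, the sign changed for Psmb5 in Atg5 KO (-0.0037), Psmb7 in Fip200 KO (-0.0030), Psmd9 in Atg5 KO (-0.0031). With voom, the sign changed for Psmb5 in Atg5 KO (-0.0042), Psmb7 in Fip200 KO (-0.0025), Psmd9 in Atg5 KO (-0.0062). With the prefix term, the sign changed for Psmb5 in Atg5 KO (-0.0025), Psmb8 in Atg7 KO (0.24), Psmd9 in Atg5 KO (-0.093), Psmd9 in Fip200 KO (0.050), Psme4 in Fip200 KO (0.30), Psmg3 in Atg7 KO (-0.27). With chromosomes centred, the sign changed for Pomp in Atg5 KO (-0.12), Psmb10 in Fip200 KO (0.18), Psmb5 in Atg7 KO (0.050), Psmb7 in Atg7 KO (0.053), Psmd6 in Atg5 KO (0.083), Psmd9 in Atg5 KO (-0.17), Psme1 in Atg5 KO (0.12), Psme1 in Atg7 KO (0.18). Among fits without 1 library, values crossed 0 for Nfe2l1 in Fip200 KO (-0.73 to 0.021), Pomp in Atg5 KO (-0.020 to 0.19), Psmb10 in Fip200 KO (-0.49 to 0.089), Psmb7 in Atg7 KO (-0.063 to 0.057), Psmb7 in Fip200 KO (-0.22 to 0.16), Psmb8 in Atg7 KO (-1.40 to 0.49), Psmc3 in Fip200 KO (-0.12 to 0.13), Psmc4 in Fip200 KO (-0.10 to 0.18), Psmd9 in Atg5 KO (-0.084 to 0.14), Psme1 in Atg5 KO (-0.22 to 0.12), Psme1 in Atg7 KO (-0.37 to 0.0017), Psme4 in Fip200 KO (-0.40 to 0.051).

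With 3 libraries a group the precision was limited by the spread between libraries. In Fip200 KO cells the 95% interval excluded a 2-fold change in 35 of 41 genes, against 46.2% of all genes. Reads per library ranged from 17266926 to 23629730. The chromosome-centred values and the set of subunits by function were chosen after seeing the data, and the latter gave the same counts of calls against control, with Psmc5 in place of Psmc3ip among the higher calls with Atg5 KO. RNA levels give no measure of protein or of proteasome activity.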
